A study of Mus musculus with 6 samples.

Results

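Fc receptors bind the constant part of antibodies, and C-type lectin receptors bind sugars and lipids of microbes and damaged cells. On granulocytes and macrophages most of them work in a common way: the receptor, or a small adaptor protein held in the membrane beside it, carries a tyrosine motif called ITAM, which recruits the kinase SYK and starts phagocytosis, the oxidative burst and cytokine release. Receptors with the opposite motif, ITIM, recruit phosphatases that dampen these signals. The 10 genes described here were the listed symbols Fcgr1, Fcgr2b, Fcgr3, Fcgr4 and Fcer1g (Fc receptors) and Clec4d, Clec4e, Clec7a, Clec12a and Clec5a (C-type lectins), each taken through the probe sets annotated to that symbol alone. All 10 had exactly 1 such probe set, out of 19937 genes measured.

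The arrays came from granulocytes of C57BL/6J mice, measured on Affymetrix Mouse Gene 1.0 ST arrays in 2 groups of 3. In the caffeine+ group, cells received 15 mM caffeine for 4 hours, were washed 2 times, and then spent 4 more hours with caffeine plus actinomycin D at 2 µg/ml. In the caffeine- group the second 4 hours were in actinomycin D alone. Read from the protocol, both groups thus had actinomycin D, which blocks transcription, and both had caffeine first, although the caffeine- samples are labelled as not treated with caffeine. Caffeine was used to inhibit nonsense-mediated decay (NMD), the pathway that removes mRNAs with premature stop codons, and the comparison asks which transcripts differ when it is present while transcription is blocked. How far NMD was inhibited was not measured here. Whether the 3 arrays of a group stand for different mice or cultures is not stated in the labels. The p-values therefore rest on array-to-array spread that could be purely technical. Values are log2 expression values, differences are caffeine+ minus caffeine-, errors of group means are SD with n = 3 arrays, and errors of differences are standard errors. Adjusted p-values are from limma with Benjamini-Hochberg adjustment over all 19937 genes, called at 0.05.

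All 10 genes had lower mean values in the caffeine+ arrays, and in all 10 no caffeine+ array reached the lowest caffeine- array. Groups did not overlap in 45.9% of all genes, 26.3% lower and 19.5% higher in caffeine+. At an adjusted p under 0.05, 8 of the 10 were called lower and none higher, against a background of 21.7% of all genes called lower and 16.2% called higher. At an unadjusted p under 0.05, 10 were lower and 0 higher, beside 5008 lower and 3589 higher of all 19937 genes. Of genes whose mean level lay within the range of the members, 28.2% were called lower. The median difference of the 10 genes was -0.44, beside -0.04 over all genes. The genes called lower were all 5 lectins, Fcgr1, Fcgr4 and Fcer1g. The other two, Fcgr2b and Fcgr3, missed the threshold. Only Clec5a and Fcgr4 passed with at least 2-fold lower values, which 3.15% of all genes did, beside 2.63% at least 2-fold higher and 5.79% in either direction.

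**Figure D1:**
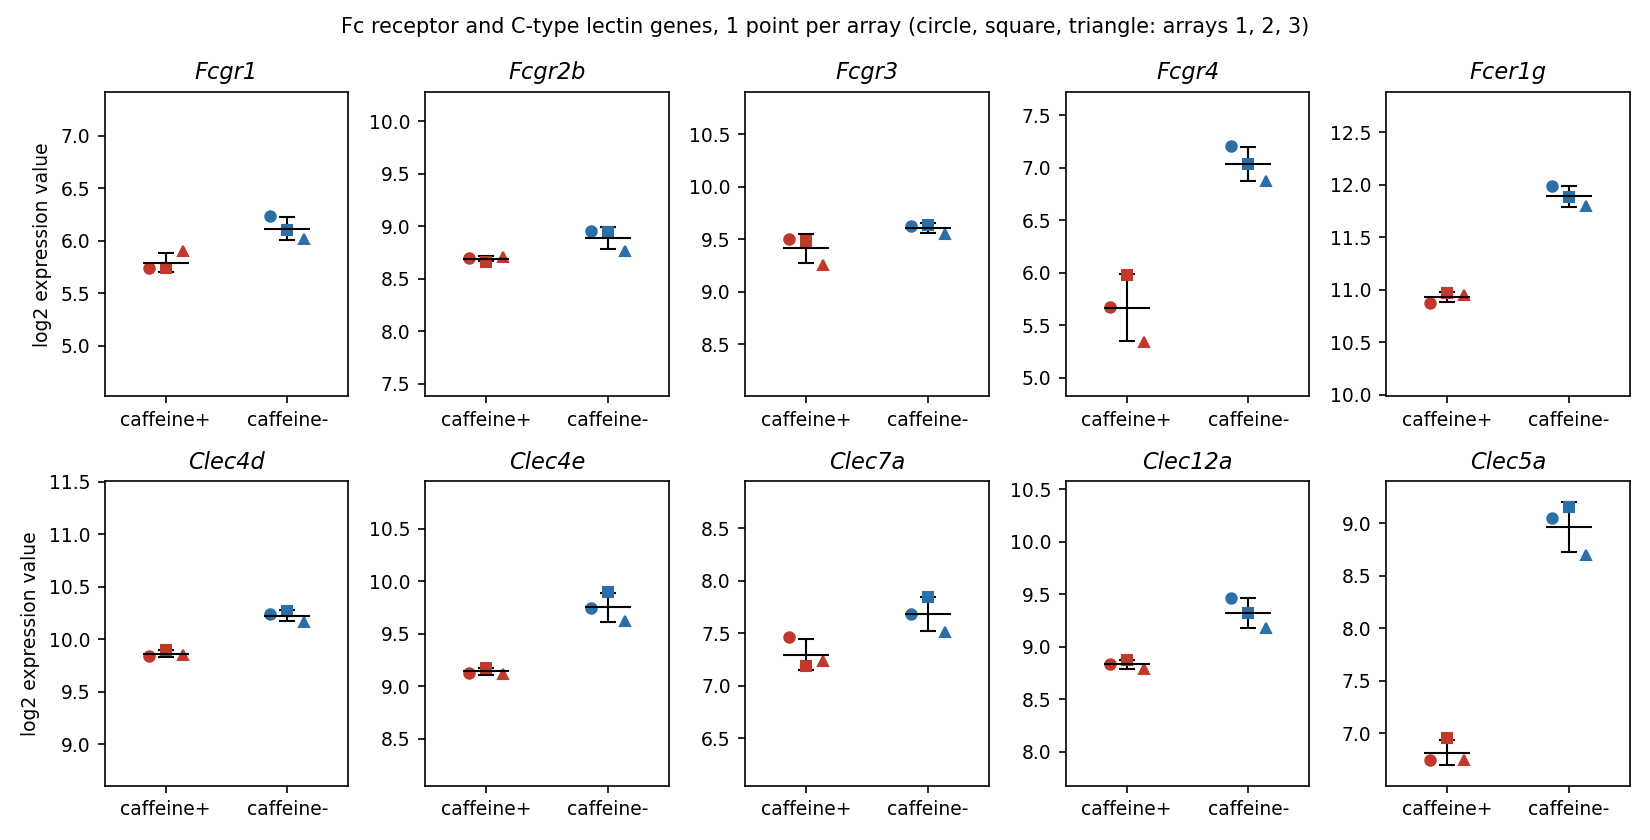
Log2 expression values of the 10 genes (y axis, a window of the same height in every panel) in each caffeine+ array (red, left) and each caffeine- array (blue, right), with symbols for arrays 1, 2 and 3, and the group mean and SD as black bars. The groups are apart in every panel, by 1.75 log2 units for Clec5a and by 0.04 for Fcgr3.

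The sequences around an annotated start of 4 of the genes are shown because they span the size of the differences: Clec5a, Fcgr4 and Fcer1g had the largest falls and Fcgr3 the smallest difference. Each is the 300-base window from 250 bases before to 50 after the annotated start in the RefSeq table for GRCm38.p6, written 5′ to 3′ on the strand of the gene. Capitals mark the PU box, GAGGAA on either strand, the core recognised by the myeloid transcription factor PU.1. Clec5a is at chr6:40585756-40586055 (minus strand), Fcgr4 at chr1:171018676-171018975 (plus strand), Fcer1g at chr1:171234300-171234599 (minus strand) and Fcgr3, by the first of its 2 listed starts, at chr1:171059354-171059653 (minus strand). The Fcgr3 window lies inside the RefSeq span of the gene, chr1:171051169-171065915, and so is not upstream of the whole gene.
Clec5a: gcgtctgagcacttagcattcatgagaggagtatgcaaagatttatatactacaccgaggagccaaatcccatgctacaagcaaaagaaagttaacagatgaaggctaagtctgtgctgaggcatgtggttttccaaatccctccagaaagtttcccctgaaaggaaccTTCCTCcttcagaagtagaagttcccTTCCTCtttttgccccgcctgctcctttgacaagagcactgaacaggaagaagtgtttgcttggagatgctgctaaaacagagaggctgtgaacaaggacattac
Fcgr4: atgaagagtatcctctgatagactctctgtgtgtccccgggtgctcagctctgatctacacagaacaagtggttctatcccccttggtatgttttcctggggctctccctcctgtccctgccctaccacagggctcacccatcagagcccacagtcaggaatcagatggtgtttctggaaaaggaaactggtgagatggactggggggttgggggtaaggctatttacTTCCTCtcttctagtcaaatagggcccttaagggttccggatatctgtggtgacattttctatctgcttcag
Fcer1g: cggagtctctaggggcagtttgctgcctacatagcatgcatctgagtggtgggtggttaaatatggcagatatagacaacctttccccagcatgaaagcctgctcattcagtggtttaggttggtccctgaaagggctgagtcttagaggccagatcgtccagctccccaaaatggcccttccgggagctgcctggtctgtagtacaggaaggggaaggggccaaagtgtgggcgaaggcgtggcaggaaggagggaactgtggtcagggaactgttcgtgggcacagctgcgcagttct
Fcgr3: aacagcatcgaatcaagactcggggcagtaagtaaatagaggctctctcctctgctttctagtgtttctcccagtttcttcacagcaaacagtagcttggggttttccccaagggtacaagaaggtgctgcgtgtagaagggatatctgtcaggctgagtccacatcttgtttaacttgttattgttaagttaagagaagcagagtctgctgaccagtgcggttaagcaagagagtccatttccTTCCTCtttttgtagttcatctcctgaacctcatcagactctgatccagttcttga

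All 10 genes were found in this table. The PU box was present in 8 of the 10, in every gene except Fcgr2b and Fcer1g, and in 31.3% of the 27025 genes of the table. The C/EBP consensus, TTNCNNAA on either strand, was in 6 of the 10 genes, beside 44.1% of all genes. The letters of the TATA box, TATAAA on either strand, were in 3 of the 10, Clec4e, Clec5a and Clec7a, beside 15.7%. Relative to the start, the match began at -29 in Clec4e, at -209 in Clec5a and at 43 in Clec7a. In Clec7a it was found for the first of the listed starts only. The cAMP response element TGACGTCA was in 0 of the 10 genes and in 2.03% of all genes. No match of one motif overlapped a match of another in these genes. The motifs were chosen with the sequences in view, and a match is a description of the letters only. The PU box was in both Clec5a, which fell the most, and Fcgr3, which missed the threshold.

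Among the activating receptors for IgG, Fcgr4 had the largest difference. Fcgr4 encodes a receptor for mouse IgG2a and IgG2b found on neutrophils and monocytes. Its values were 5.68, 5.98 and 5.34 in the caffeine+ arrays and 7.20, 7.04 and 6.88 in the caffeine- arrays. The lowest caffeine- array lay 0.89 log2 units above the highest caffeine+ array. The caffeine+ values were below the median of all probe sets, 6.49 to 6.60 in the 6 arrays, and the caffeine- values were above it. The mean was 5.67 ± 0.32 in caffeine+ and 7.04 ± 0.16 in caffeine- (SD, n = 3 each), a difference of -1.37 ± 0.14 or 2.59-fold lower (limma adjusted p = 1.0e-06).

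Fcgr1 encodes the high-affinity IgG receptor CD64, best known from monocytes and macrophages. It read 5.74, 5.74 and 5.90 in the caffeine+ arrays, and 6.24, 6.10 and 6.01 in the caffeine- arrays. Both groups were below the median of all probe sets, which was 6.49 to 6.60 in the 6 arrays, and the groups were apart by 0.12. The difference was -0.33 ± 0.11 (1.25-fold lower, limma adjusted p = 0.023). This call was lost without caffeine+ array 1 (limma adjusted p = 0.092) or 2 (0.084) and without caffeine- array 1 (0.11), and when every probe set was tested (0.051), in a range of 0.0099 to 0.11 over 15 alternatives.

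Fcgr3 encodes the low-affinity activating IgG receptor CD16, which immune complexes engage. Its values were 9.51, 9.49 and 9.26 in the caffeine+ arrays, against 9.63, 9.64 and 9.55 in the caffeine- arrays. The caffeine+ array 3 stood lowest, and the groups were apart by only 0.04. The difference was -0.19 ± 0.08 (limma adjusted p = 0.065), with an unadjusted 95% interval of -0.35 to -0.03. It passed in 4 of 16 alternatives, among them quantile normalization (-0.29, limma adjusted p = 0.0027) and the fit without caffeine- array 3 (0.032), in a range of 0.0027 to 0.34. Without caffeine+ array 3 the Fcgr3 difference shrank to -0.11 (limma adjusted p = 0.34).

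Fcgr2b is the inhibitory member of the family, with an ITIM in its tail. It read 8.70, 8.66 and 8.71 in the caffeine+ arrays, and 8.96, 8.95 and 8.77 in the caffeine- arrays. The caffeine+ arrays lay close together, and caffeine- array 3 came nearest to them, at 0.06. The difference was -0.20 ± 0.08 (limma adjusted p = 0.052), with an unadjusted 95% interval of -0.36 to -0.04. It passed in 7 of 16 alternatives, with a limma adjusted p between 0.0031 and 0.22.

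The balance between activating and inhibitory receptors was read as the log2 ratio of each activating gene to Fcgr2b within an array. A ratio of probe sets within an array shows unequal change and not a ratio of molecules. The Fcgr4 to Fcgr2b log2 ratio was -3.03, -2.68 and -3.37 in the caffeine+ arrays, and -1.75, -1.91 and -1.89 in the caffeine- arrays. It differed by -1.17 with no overlap (exact two-sided permutation test, p = 0.1, the smallest that 3 against 3 arrays can give, and 0.3 adjusted over 6 ratios). The Fcgr3 to Fcgr2b log2 ratio averaged 0.72 ± 0.15 in caffeine+ and 0.71 ± 0.06 in caffeine- (SD, n = 3 each; exact permutation p = 0.9, adjusted 0.9), and the groups overlapped. The Fcgr1 to Fcgr2b ratio differed by -0.13 (exact permutation p = 0.2, adjusted 0.4). Fcgr2b, Fcgr4 and Fcgr3 are neighbouring genes of related sequence. Probe sequences were not used here, so cross-hybridisation among them was not tested. In the RefSeq table the spans of Fcgr4, Fcgr3 and Clec7a also overlap small or predicted genes, so signal there cannot be assigned with certainty.

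Fcer1g encodes the common gamma chain, the ITAM adaptor that Fcgr1, Fcgr3, Fcgr4 and the lectins Clec4d and Clec4e depend on for signalling. It read 10.88, 10.97 and 10.94 in the caffeine+ arrays, and 11.99, 11.88 and 11.80 in the caffeine- arrays. The groups were far apart for their spread, by 0.83 between the nearest arrays. The mean was 10.93 ± 0.05 in caffeine+ and 11.89 ± 0.10 in caffeine- (SD, n = 3 each), a difference of -0.96 ± 0.06 or 1.94-fold lower (limma adjusted p = 2.0e-09). The other ITAM adaptor of myeloid cells, Tyrobp (DAP12), read 11.24, 11.17 and 11.24 in the caffeine+ arrays, against 12.04, 12.09 and 12.05 in the caffeine- arrays. Tyrobp thus fell as well, by 1.80-fold (difference -0.85 ± 0.05, limma adjusted p = 1.0e-09). The Fcer1g to Tyrobp log2 ratio differed by -0.11 between the groups, which overlapped (exact permutation p = 0.3, adjusted 0.45).

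**Figure D2:**
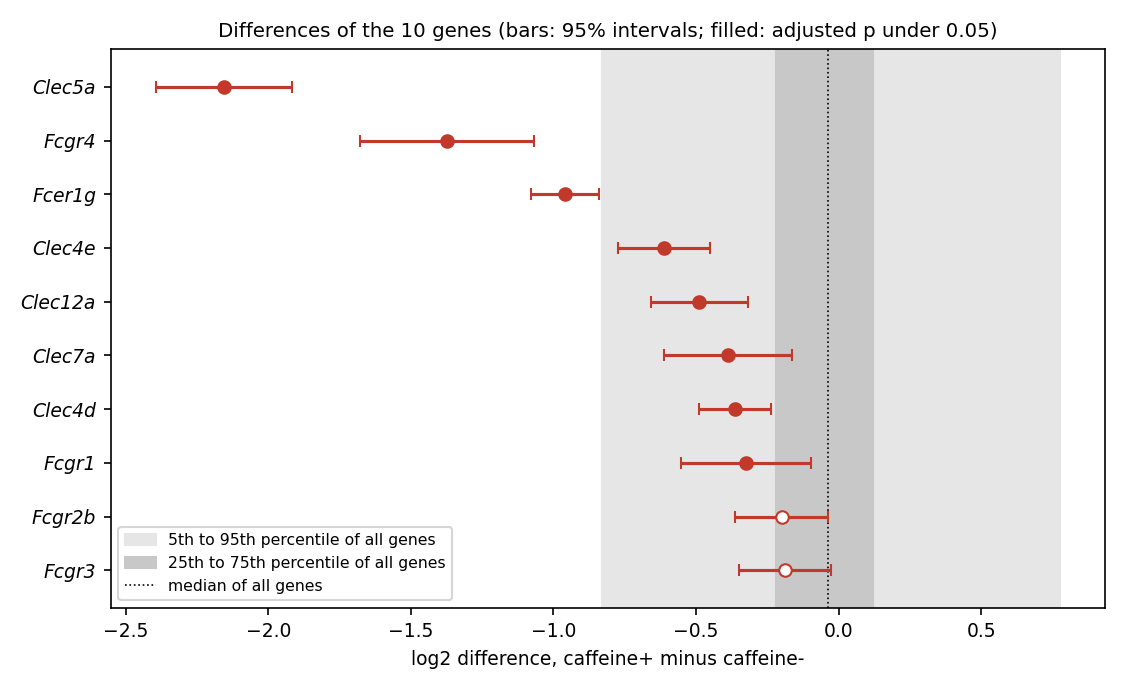
Log2 differences, caffeine+ minus caffeine- (x axis), of the 10 genes with unadjusted 95% intervals, filled where the limma adjusted p is under 0.05. The bands are percentiles of all 19937 genes: Clec5a, Fcgr4 and Fcer1g lie below the 5th percentile of -0.83, and Fcgr2b and Fcgr3 lie inside the middle band, which starts at -0.22.

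Clec5a had the largest difference of the 10. It encodes MDL-1, a lectin of granulocytes and monocytes that signals through DAP12 and is known as a receptor for dengue virus. Its values were 6.75, 6.95 and 6.74 in the caffeine+ arrays and 9.05, 9.16 and 8.70 in the caffeine- arrays. The groups were apart by 1.75 log2 units. The mean was 6.81 ± 0.12 in caffeine+ and 8.97 ± 0.24 in caffeine- (SD, n = 3 each), a difference of -2.16 ± 0.11 or 4.46-fold lower (limma adjusted p = 6.8e-10). Of 19937 genes, 31 had a more negative difference. Over 16 alternatives its difference lay between -2.29 and -2.06.

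Several genes next to Clec5a on its chromosome also fell, which was looked at after the values were seen. The RefSeq table was used for order and strand only, and no gene of the table overlaps Clec5a. Clec5a lies on the minus strand, and the next genes downstream in its direction of transcription are Olfr460, Olfr461, Prss37, Tas2r108 and Tas2r137, which code for olfactory receptors, a serine protease and bitter taste receptors. Olfr460, on the opposite strand, read 5.98, 5.91 and 5.87 in the caffeine+ arrays, against 8.20, 8.18 and 8.53 in the caffeine- arrays. The groups were far apart, and Olfr460 was 5.21-fold lower (difference -2.38 ± 0.11, limma adjusted p = 1.7e-10). Olfr461 (difference -1.52 ± 0.16), Prss37 (-1.62 ± 0.15), Tas2r108 (-1.43 ± 0.09) and Tas2r137 (-1.04 ± 0.09) fell too. The next gene, Ssbp1, did not pass (-0.04 ± 0.05), while Wee2 beyond it fell (-0.62 ± 0.12). On the upstream side Tas2r138 (-0.18 ± 0.11), Mgam (-0.02 ± 0.11) and Moxd2 (-0.08 ± 0.12) did not pass. Beyond them Prss58 (-1.23 ± 0.12) and 1700074P13Rik (-0.42 ± 0.12) fell. In all, 8 of the 14 measured genes among the 8 on each side were called lower, where 21.7% of all genes were called lower. Olfr461 and Prss37 share the strand of Clec5a, and Olfr460, Tas2r108 and Tas2r137 do not. Whether the signal of these probe sets comes from the named genes was not tested.

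**Figure D3:**
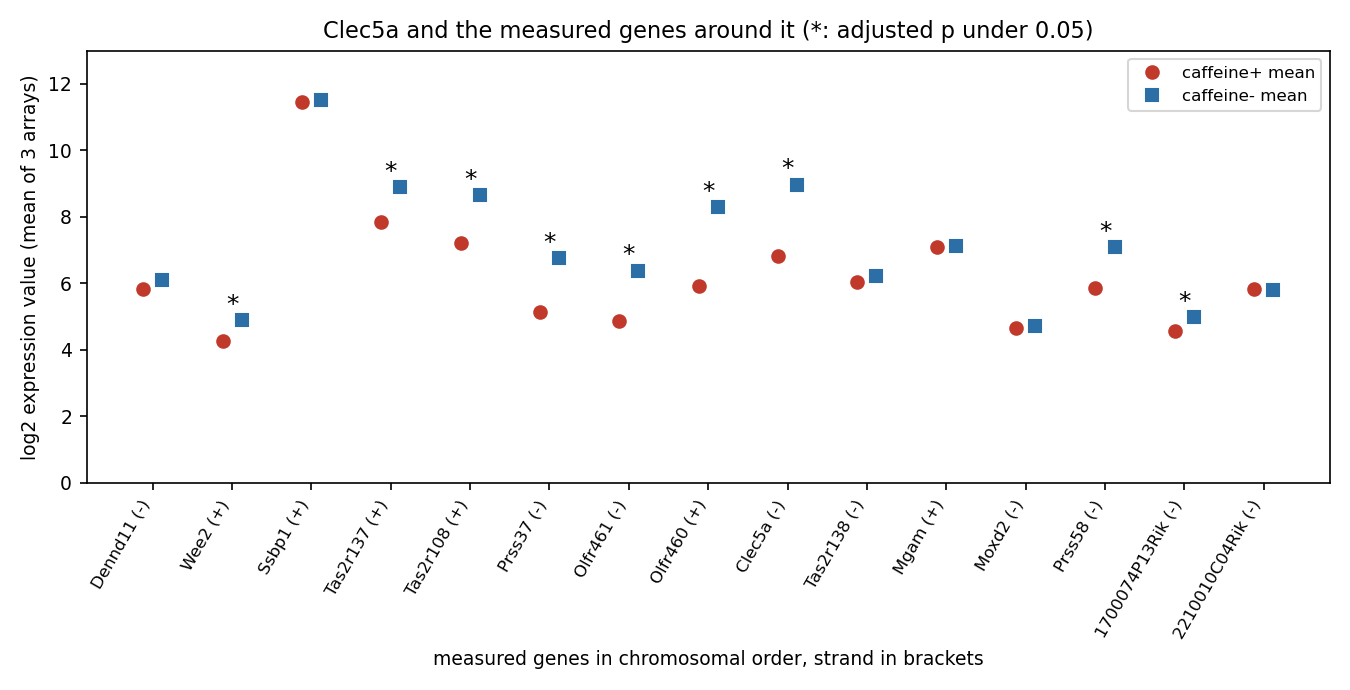
Mean log2 expression values (y axis, 3 arrays per group) of Clec5a and the measured genes on either side of it in chromosomal order (x axis, strand in brackets), caffeine+ as red circles and caffeine- as blue squares, with asterisks for a limma adjusted p under 0.05. The caffeine+ points lie below the caffeine- points at Clec5a and at the 5 genes to its left, from Tas2r137 to Olfr460, and close to them at Tas2r138, Mgam and Moxd2.

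Clec4e and Clec4d are adjacent genes whose proteins, Mincle and MCL, form complexes with the gamma chain and recognise the mycobacterial glycolipid cord factor. Clec4e read 9.13, 9.18 and 9.12 in the caffeine+ arrays, and 9.75, 9.90 and 9.62 in the caffeine- arrays. It was lower in every caffeine+ array, with a difference of -0.61 ± 0.08 (1.53-fold lower, limma adjusted p = 6.1e-06). Clec4d read 9.84, 9.90 and 9.85 in the caffeine+ arrays, and 10.25, 10.27 and 10.17 in the caffeine- arrays. Both groups were tight, and the difference was -0.36 ± 0.06 (1.29-fold lower, limma adjusted p = 0.00011). The log2 ratio of Clec4d to Clec4e averaged 0.72 ± 0.01 in caffeine+ and 0.47 ± 0.09 in caffeine- (SD, n = 3 each), without overlap (difference 0.25, exact permutation p = 0.1, the smallest possible, adjusted 0.3).

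Clec7a and Clec12a lie in another lectin cluster and signal in opposite senses. Clec7a encodes Dectin-1, the receptor for fungal beta-glucan, whose own tail carries a single-tyrosine activating motif. Its values were 7.46, 7.19 and 7.24 in the caffeine+ arrays and 7.69, 7.85 and 7.52 in the caffeine- arrays. The nearest arrays of the groups were 0.05 apart, and the difference was -0.39 ± 0.11 (1.31-fold lower, limma adjusted p = 0.0076). The call was kept in all 16 alternatives, with a limma adjusted p of at most 0.048.

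Clec12a encodes an inhibitory receptor with an ITIM that binds uric acid crystals. It read 8.84, 8.87 and 8.79 in the caffeine+ arrays, against 9.46, 9.33 and 9.18 in the caffeine- arrays. The caffeine+ arrays were again the tighter group. The difference was -0.49 ± 0.08 (1.40-fold lower, limma adjusted p = 0.00011). The log2 ratio of Clec7a to Clec12a overlapped between the groups (difference 0.10, exact permutation p = 0.5, adjusted 0.6).

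Of 21 measured genes in a list of other C-type lectin receptors 9 were called lower and 2 higher, where 21.7% of all genes were lower and 16.2% higher. Their median difference was -0.12, beside -0.04 over all genes. The largest falls were in Clec1b (CLEC-2, 3.03-fold lower), Clec10a (2.37-fold) and Clec4a1 (2.00-fold). The rises were in Clec4b2 (1.58-fold higher) and Clec4a2 (1.46-fold higher), which precede Clec4d and Clec4e in the same cluster. Between them and Clec4d lies Clec4n, the Dectin-2 gene, which differed by 0.10 ± 0.09. Of 5 measured genes among the 4 on each side of Clec4d and Clec4e, 0 were called lower and 2 higher. Between Clec12a and Clec7a all 4 genes were measured and all fell: Clec12b (-0.82 ± 0.12), Clec1b (-1.60 ± 0.11), Clec9a (-0.44 ± 0.11) and Clec1a (-0.64 ± 0.11). With the 4 genes on either side of the interval, 5 of 12 measured neighbours were lower, beside 21.7% of all genes. Of these 8 flanking genes only Gabarapl1 was called (-0.79 ± 0.10), and Clec2e, Clec2d, Cd69, Clec2m, Olr1, Tmem52b and Klre1 did not pass. These neighbours were picked out by position after their values were seen, Clec1b, Clec4a2 and Clec4b2 apart. Group means of the 4 genes between Clec12a and Clec7a ran from 5.34 to 7.40, beside a median of all probe sets of 6.49 to 6.60. No background level was used here, so whether their fold changes are compressed was not tested.

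Of 10 measured genes in a list of other Fc receptors 2 were lower and none higher (limma; 2 and 0 at an unadjusted p under 0.05), with a median of -0.09. That share is close to the 21.7% of all genes called lower, and is no result about the list. They were Ms4a2, the beta chain of the IgE receptor of basophils and mast cells (2.28-fold lower), and Fcer2a, the low-affinity IgE receptor (1.74-fold lower). Of 21 other myeloid receptors with an ITAM partner or an ITIM, 12 fell and 2 rose, with a median of -0.34, beside 21.7% lower and 16.2% higher among all genes. Treml4 was 2.95-fold, the ITIM receptor gene Cd300a 2.70-fold and Lilrb4a 1.90-fold lower, whereas Pilrb1 was 1.68-fold and Trem1, an amplifier of inflammation that pairs with DAP12, 1.35-fold higher.

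Genes that carry the signal onward from the receptors went both ways. Of 15 measured genes of the ITAM adaptor and SYK-CARD9 list 5 rose and 6 fell, with a median of -0.07, where 37.9% of all genes were called in either direction. Syk itself read 8.16, 8.32 and 8.08 in the caffeine+ arrays, against 7.57, 7.63 and 7.46 in the caffeine- arrays. Syk was thus higher where the receptors and adaptors were lower (difference 0.64 ± 0.09, 1.55-fold higher, limma adjusted p = 2.7e-05). Bcl10 and Malt1, which form the complex with CARD9 that activates NF-kappaB, were 2.15-fold and 2.08-fold higher. The guanine nucleotide exchange factor gene Vav3 was 2.16-fold higher. Card9 read 7.14, 7.25 and 6.85 in the caffeine+ arrays and 7.26, 7.10 and 7.24 in the caffeine- arrays, with overlapping groups (difference -0.12 ± 0.11, limma adjusted p = 0.47). Lat2, an adaptor phosphorylated by SYK, was 1.83-fold lower and the kinase gene Btk 1.44-fold lower, beside Tyrobp.

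**Figure D4:**
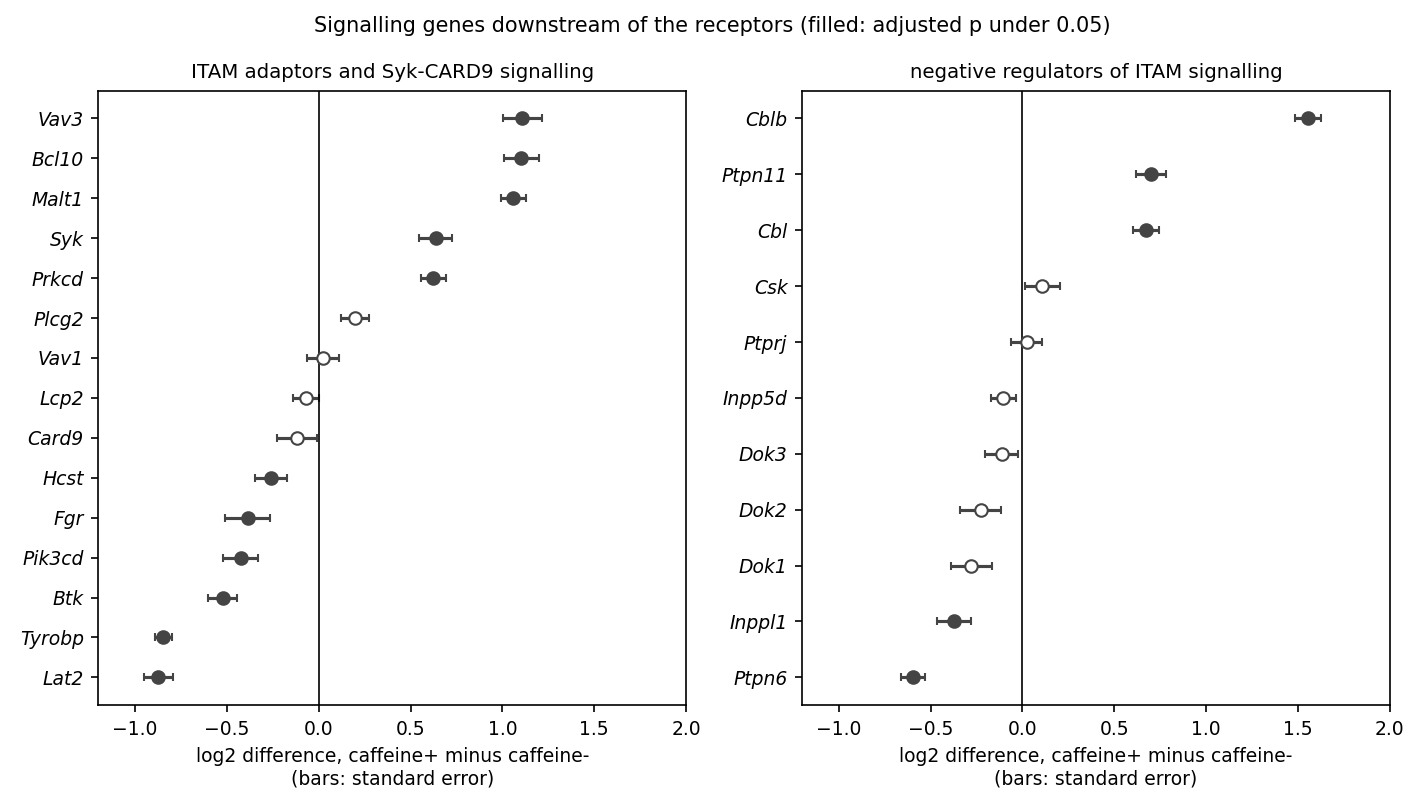
Log2 differences, caffeine+ minus caffeine- (x axis, bars are standard errors), of the measured genes of the ITAM adaptor and SYK-CARD9 list (left) and of negative regulators (right), filled where the limma adjusted p is under 0.05. Vav3, Bcl10, Malt1, Syk and Cblb lie to the right of 0, while Lat2, Tyrobp and Ptpn6 lie to the left.

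Of 11 negative regulators of the pathway 3 were called higher and 2 lower, with a median of -0.10. The share called in either direction, 45.5%, was near the 37.9% of all genes. Cblb, a ubiquitin ligase that targets activated receptors and kinases, was 2.94-fold higher, with 9.64, 9.70 and 9.66 in the caffeine+ arrays and 8.14, 8.14 and 8.05 in the caffeine- arrays. Its relative Cbl was 1.59-fold and the phosphatase gene Ptpn11 (SHP-2) 1.63-fold higher. Ptpn6, the phosphatase SHP-1 that ITIMs recruit, went the other way at 1.51-fold lower (difference -0.60 ± 0.07, limma adjusted p = 2.0e-06), as did the lipid phosphatase gene Inppl1 at 1.29-fold lower. Inpp5d, the lipid phosphatase SHIP-1 that Fcgr2b recruits, differed by -0.10 ± 0.07 (limma adjusted p = 0.27). After quantile normalization Inpp5d was called lower (-0.21, limma adjusted p = 0.0056), and after centring each array on its median it differed by -0.05.

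Most listed markers of neutrophils, monocytes and dendritic cells were also lower in caffeine+. Of all 19937 genes 21.7% were called lower and 16.2% higher. At an unadjusted p under 0.05, 5008 of them were lower and 3589 higher. Among 15 markers of neutrophil granulocytes 14 were called lower by limma and 0 higher (14 and 0 at an unadjusted p under 0.05), and their median difference was -0.61. Elane and Prtn3, the genes of granule proteases, were 2.14-fold and 1.75-fold lower. The mean log2 level of this list was 9.35 to 9.41 in the caffeine+ arrays and 9.91 to 10.06 in the caffeine- arrays. Among 11 markers of monocytes and macrophages 8 were called lower and 2 higher. Their median difference was -0.58, with a mean level of 7.97 to 8.01 in caffeine+ and 8.43 to 8.62 in caffeine-. Ly86 was 2.67-fold and Ctss 1.97-fold lower, and the 2 that rose, picked out after their values were seen, were Cd68 (1.77-fold higher) and Cd14 (1.39-fold higher). Dendritic cell markers were called lower in 7 of 9 cases and higher in 0 (limma; 7 and 0 at an unadjusted p under 0.05), among them H2-Ab1 (1.42-fold lower) and Siglech (1.59-fold lower). In bulk samples fewer cells of a type and less RNA per cell cannot be told apart, and the part of these markers in the result was not tested.

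A smaller share of the markers of the remaining cell types was called. Of all genes 21.7% were called lower and 16.2% higher. Among 11 markers of eosinophils, basophils and mast cells, 5 were called lower and 1 higher, with Mcpt8 2.88-fold and Prg2 1.55-fold lower. The marker that rose, picked out after its values were seen, was Gata2 (1.39-fold higher). Of 7 B cell markers 1 fell, Cd79b (3.29-fold lower), and Vpreb3 differed by -0.22 ± 0.10. Of 4 megakaryocyte markers 1 fell, Ppbp (2.11-fold lower), and Itga2b differed by -0.10 ± 0.09. The shares of B cell and megakaryocyte markers called, 14.3% and 25%, are near that of all genes called lower. They are no result about these lists. Of 5 erythroid markers Tfrc was 1.41-fold higher and Alas2 1.57-fold lower, a share called of 40% beside 37.9% of all genes. None of 8 T and NK cell markers passed limma's threshold. At an unadjusted p under 0.05, 2 were higher (Gzma 0.25 ± 0.11 and Cd3d 0.24 ± 0.11) and 0 lower, beside 3589 and 5008 of all 19937 genes. That list averaged 5.24 to 5.53 in the caffeine+ arrays and 5.32 to 5.37 in the caffeine- arrays. These means lay below the median of all probe sets, which was 6.49 to 6.60 in the 6 arrays. No detection values were used here, so no marker was read as absent.

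**Figure D5:**
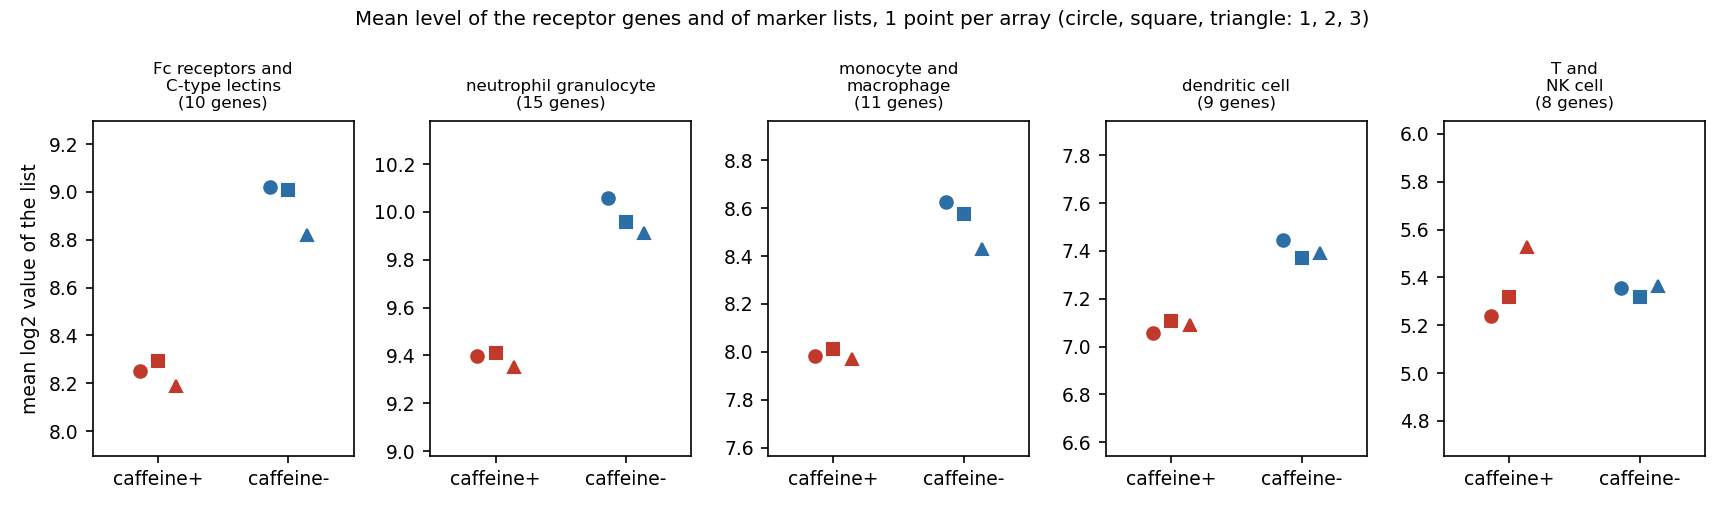
Mean log2 level (y axis, a window of 1.4 log2 units in every panel) of the 10 receptor genes and of 4 marker lists in each caffeine+ array (red, left) and caffeine- array (blue, right), with symbols for arrays 1, 2 and 3. The receptor, neutrophil, monocyte and dendritic cell lists are lower in all caffeine+ arrays, and the T and NK cell list overlaps.

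Within the caffeine- group, array 3 had the lowest value of all 10 receptor genes, while it was lowest of its group for 36.4% of all genes. It also had the lowest mean level of the neutrophil list, 9.91 beside 10.06 and 9.96 in arrays 1 and 2, and of the monocyte list, 8.43 beside 8.62 and 8.58. Without this array all 10 genes were called lower, including Fcgr2b (-0.26, limma adjusted p = 0.0056) and Fcgr3 (-0.21, 0.032). With each of the other 5 arrays left out, 7 or 8 of the 10 were called lower. Across probe sets, r was 0.986 to 0.992 between arrays within a group and 0.959 to 0.965 between arrays from the 2 groups.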

How the data were processed

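Each of the 6 arrays received biotinylated cDNA from 300 ng of Trizol-extracted total RNA (Encore Biotin Module), per the labels' protocols. The deposited values, 34760 probe sets per array, were taken as log2 values because they run from 1.90 to 13.98, and were used as they stood. For summarization, background correction, normalization and the array's genome build, the sources used here give no information. Whether the values were normalized is thus not known, and they were not read as showing a change in total mRNA per cell. Scanner files and detection values were not used here, and precision is limited by the number of arrays.

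Names came from the platform annotation, where 21640 probe sets had 1 symbol, 1321 several, and 11799 were not listed. Of the first, 21553 had a gene identifier in the RefSeq table of GRCm38.p6. A gene was represented by its probe set of highest mean. The test was limma 3.58.1 in R 4.3.3 (lmFit, eBayes with trend, all 6 arrays, no block), two-sided, with Benjamini-Hochberg adjustment over 19937 genes and a threshold of 0.05, tested on simulated data. Ratios within arrays were compared by exact permutation. The members and lists were chosen with earlier results of these data known. All 10 members are named. From each list of related genes up to 3 rises and 3 falls of the largest size among called genes without overlap are named, with Tyrobp, Syk, Card9, Inpp5d and Ptpn6 always, and from each marker list the 2 with the smallest p. Neighbouring genes, Cd68, Cd14 and Gata2 were named after their values were seen. The labels do not say whether replicate numbers pair the samples, and same-numbered arrays did not all deviate together (r = -0.03, 0.19 and 0.29), so no block was used. The 16 alternatives covered normalization, filters on low values, the choice of probe set, the variance model, the replicate block and leaving out each array.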

Additional observations from a re-analysis of the deposited data

How the results depend on the processing

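Over the 16 alternatives between 7 and 10 of the receptor genes were called lower by limma and none higher, and 7 of them (all but Fcgr1, Fcgr2b and Fcgr3) kept their call in each that tested them (15 for Fcgr4, which is below the median level). The replicate block called all 10 lower, Fcgr2b at an adjusted p of 0.049 and Fcgr3 at 0.038, with 4660 lower and 3388 higher among all genes against 4325 and 3229 without it. Not every pair of same-numbered arrays correlated above 0.1, so the numbers were not taken as a pairing, although 4 of 6 arrays correlated best with their own number. Leaving out 1 array gave 7 to 10 lower receptor genes. Of 492 values of 36 counts and ratios, 485 stayed close and 7 moved. A change of direction was not scored for these values. Averaging a gene's probe sets could not move the ratios, because each of their genes had 1 probe set. When only genes above the median level were tested, which leaves fewer genes, counts fell to 0 lower megakaryocyte markers, 0 higher and 1 lower other lectin receptors, and 1 lower other Fc receptor. T and NK cell markers called higher numbered 1 after quantile normalization and 2 after centring each array on its median, and the Fcgr1 to Fcgr2b ratio differed by -0.010 after quantile normalization; the cause was not tested. Signal over background is not known here, which limits what can be said of dim probe sets.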

Other observations

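Genes lying between the Fc receptor genes Fcgr2b and Fcer1g, named by position after their values were seen, were also lower in caffeine+. Of 6 measured genes there 4 fell, where 21.7% of all genes were called lower. Sdhc, a subunit of mitochondrial complex II, averaged 8.41 in the caffeine+ arrays and 8.95 in the caffeine- arrays (difference -0.54 ± 0.08). Cfap126, Tomm40l and Apoa2 differed by -0.65 ± 0.14, -0.53 ± 0.09 and -0.42 ± 0.08. Around Fcgr1 2 of 6 measured genes fell, Txnip (-0.28 ± 0.07) and Polr3gl (-0.41 ± 0.09).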
